A study of Mus musculus with 6 samples.

Results

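The 36 genes described here encode neuropeptide precursors and granins, and they were taken out of the 22322 genes of an RNA sequencing (RNA-seq) table of the mouse arcuate nucleus (ARC) by their identifiers. They are the peptide genes that remain once the melanocortin, kisspeptin, magnocellular and growth hormone groups are set aside, so *Agrp*, *Pomc*, *Kiss1*, *Avp* and *Ghrh* are not among them. The rule that lists them uses no measured value, although the list was drawn up with earlier results of these data known. Tissue was cut from brain sections of male mice by laser capture microdissection (LCM), and the diets were normal chow (NCD, 16.5% fat) and a high-fat diet (HFD, 60% fat), fed for 16 weeks from 4 weeks of age. There were 3 samples per diet, named NCD1 to NCD3 and HFD1 to HFD3, and the study used the comparison to look for genes linked to the release of luteinizing hormone in diet-induced obesity. The labels give no treatment or allele beside the diet, call the tissue brain and name it as ARC only in the sample titles. In the study *Kiss1*-Cre reporter mice showed where in the ARC to cut, and whether the sequenced samples came from such mice is not stated. The labels name neither the strain nor the number of mice behind a sample, so each p-value measures the spread between these 6 samples, which may be partly technical. Total counts per sample were 15925648, 9937632 and 6882449 for NCD and 8024664, 10479778 and 5171381 for HFD.

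Neuropeptides are cut from larger precursor proteins inside dense-core vesicles and are released by neurons to act on G protein-coupled receptors of other cells. Granins are acidic proteins of the same vesicles, where they help to pack the cargo, and several are themselves cut into peptides. In the hypothalamus such peptides carry signals on feeding, body temperature, arousal and reproduction, and neighbouring nuclei are told apart by the peptides that their neurons make. A region cut from a section holds many cell types, and in such bulk tissue fewer cells of a type and less RNA per cell cannot be told apart.

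The labelled tissue was checked against its markers before the peptides were read. All 10 markers of arcuate neurons passed the filter on low counts, and their summed level was 1342, 2287 and 1661 CPM (counts per 1000000 counts of the library) in the NCD samples and 1995, 1811 and 2307 CPM in the HFD samples. The library sizes were adjusted by trimmed mean factors (TMM), and CPM compares one gene between samples. Of these markers *Kiss1* had no count in NCD1 and HFD1, and 27, 32, 21 and 42 counts in NCD2, NCD3, HFD2 and HFD3. Markers of neighbouring nuclei were present too. The 3 markers of the lateral hypothalamus, *Pmch*, *Hcrt* and *Lhx9*, summed to 457, 757 and 738 CPM for NCD and to 416, 1996 and 282 CPM for HFD, so HFD2 stood far above the other samples and HFD3 was the lowest. The 5 markers of the paraventricular and supraoptic nuclei, of which *Avp* was the most abundant, summed to 2950, 5878 and 2615 CPM for NCD and to 1410, 1484 and 1314 CPM for HFD, with no overlap between the groups. The 6 markers of the pituitary and pars tuberalis summed to 12.6, 5.39 and 20.1 CPM for NCD and to 17.4, 11.7 and 60.0 CPM for HFD, and were highest in HFD3. *Cga* was the most abundant of these, while *Prl* and *Gh* had no count in any sample. The 6 tanycyte markers, which line the floor of the third ventricle and include the member *Adm*, were also highest in HFD3, at 320 CPM against 111 to 206 CPM in the other samples. These lists share genes with the group, since *Pmch*, *Hcrt*, *Vip*, *Nms*, *Npvf* and *Adm* each serve as a marker.

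The members were expressed over a wide range. Levels between genes were compared by the deposited FPKM (read fragments scaled to gene length and library size), which takes account of gene length. Over the 6 samples 7 members had a mean above 100 FPKM, 12 lay from 10 to 100, 8 from 1 to 10, and 9 below 1. The highest mean was that of *Pmch*, the precursor of melanin-concentrating hormone, at 971 FPKM. It was followed by *Pcsk1n* (proSAAS, a granin-like inhibitor of a precursor convertase) at 622 FPKM, *Scg5* (7B2, a chaperone of another convertase) at 406 FPKM, *Gal* (galanin) at 325 FPKM and *Chga* (chromogranin A) at 162 FPKM. *Scg3* and *Chgb* had means of 117 and 104 FPKM. The samples did not keep *Pmch* first throughout, for *Pcsk1n* exceeded it in HFD1, at 662 against 514 FPKM, and in HFD3, at 560 against 372 FPKM. All 36 members together took 0.358% to 0.564% of the counts of a sample, and the top 2 genes by count, *Pcsk1n* and *Pmch*, held 49.1% of the members' summed count.

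**Figure D1:**
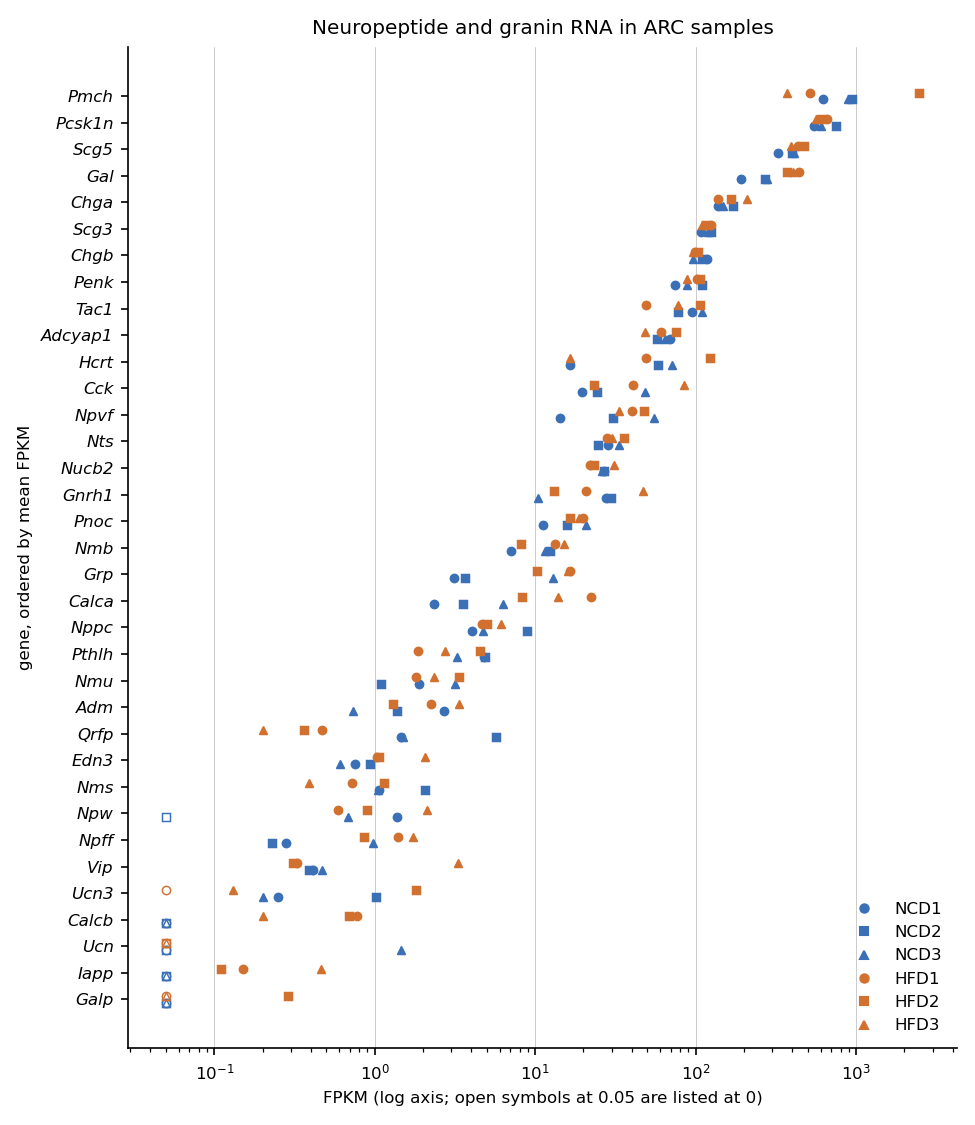
Level of each member in each sample, as deposited FPKM on a log axis, with members ordered by their mean. Blue marks NCD and orange marks HFD, and circles, squares and triangles mark replicates 1, 2 and 3 of each diet. *Pmch* at 971 FPKM and *Pcsk1n* at 622 FPKM head the order, and 9 members lie below 1 FPKM on average; *Cort*, at 0 in every sample, has no point.

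Of the 36 members 26 had enough counts for the test between diets, and 10 did not. By the quasi-likelihood test of edgeR, adjusted by Benjamini-Hochberg, no member had an adjusted p under 0.05, where 8 of all 14188 genes tested did (0.0564%). At an unadjusted p under 0.05 there were 4 members of 26 (15.4%), against 2.30% of all genes tested. Of these 4, *Calca*, *Gal* and *Grp* were higher in HFD, a call made for 1.21% of all genes, and *Qrfp* was lower, a call made for 1.09%. With DESeq2, which called 0.134% of all genes, *Qrfp* and *Calca* had an adjusted p under 0.05, at 0.000734 and 0.0146. The other 22 members tested had unadjusted p from 0.0782 to 0.962. The log2 fold change (HFD relative to NCD) was above 0 for 19 members and below 0 for 7, where 50.5% of all genes were above 0. Its median was 0.20 over the members tested and 0.00 over all genes. That median was 0.03 without HFD2 and 0.05 without NCD1. Of the marker lists, 9 of 10 arcuate neuron markers (median log2 fold change 0.31, 2 with p under 0.05) and 6 of 6 tanycyte markers (median 0.46, 2 with p under 0.05) were above 0 too. So were all 3 lateral hypothalamus markers (median 0.40) and the 3 pituitary and pars tuberalis markers tested (median 0.79, 1 with p under 0.05). *Adm* of the tanycyte list and *Pmch* and *Hcrt* of the lateral list are themselves among the 19 members above 0. Without HFD2 the log2 fold changes of *Pmch* and *Hcrt* were -0.92 and -0.58. Of the 5 paraventricular and supraoptic markers 4 were below 0 (median -0.60), and each other marker list had genes on both sides of 0. The part of these markers in the members' direction was not tested.

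**Figure D2:**
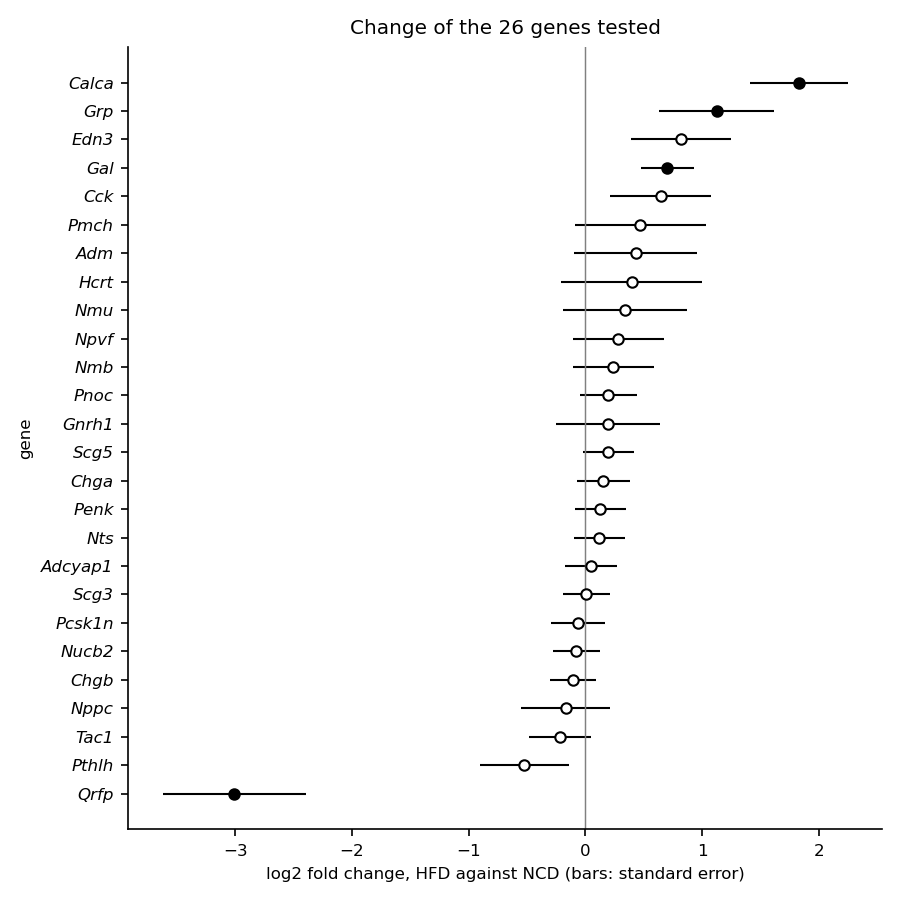
Log2 fold change (HFD relative to NCD) with its standard error for the members tested, ordered by size. *Qrfp* lies at -3.01 at one end and *Calca* at 1.83 at the other, and most members lie near 0 with error bars that cross it.

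*Qrfp* had the largest difference of the group. It encodes the precursor of the RFamide peptide 26RFa/QRFP, which is made by few cells of the lateral and periventricular hypothalamus and acts on feeding and body temperature, and it lies at chr2:31806166-31810580 on the minus strand (GRCm38). It had 68, 165 and 30 counts in the NCD samples and 11, 11 and 3 counts in the HFD samples, or 4.09, 16.8 and 4.51 CPM against 1.37, 1.08 and 0.564 CPM. All HFD samples were below all NCD samples, and NCD2 alone was several times above the other NCD samples. The mean was 8.46 ± 7.21 CPM (SD, n = 3) for NCD and 1.0 ± 0.407 CPM (SD, n = 3) for HFD. The log2 fold change was -3.01 (SE 0.61), an 8.05-fold lower level in HFD, with an unadjusted p of 0.00033 and an adjusted p of 0.26 by edgeR. With limma it was -1.36 on the log2(FPKM + 1) scale, where low genes are compressed, and -2.5 on the log2(FPKM + 0.1) scale. Without NCD2 the log2 fold change was -2.04, and without NCD3 the adjusted p was 0.0436. The HFD3 count of 3 is at the smallest amount taken as detectable, and the gene averaged 1.61 FPKM. The summed paraventricular and supraoptic markers were likewise lower in every HFD sample than in any NCD sample and highest in NCD2. *Avp* was the most abundant of them, and *Trh* of the same list was higher in HFD (log2 fold change 0.51). The summed lateral hypothalamus markers overlapped between the groups, at 457, 757 and 738 CPM in NCD and 416, 1996 and 282 CPM in HFD. They were highest in HFD2. The part of either region in the *Qrfp* difference was not tested.

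*Qrfp* was 1 of 3 members that encode RFamide peptides. *Npvf*, the precursor of the gonadotropin-inhibitory RFamide-related peptides and a marker of the dorsomedial hypothalamus, had 11.1, 24.9 and 46.1 CPM in NCD and 32.3, 39.8 and 26.3 CPM in HFD. The NCD samples enclosed the HFD samples, and the log2 fold change was 0.28 (SE 0.39, unadjusted p = 0.482 by edgeR across all genes). It was -0.11 without NCD1 and 0.88 (unadjusted p = 0.0153) without NCD3. *Npff*, the precursor of neuropeptide FF, had 1 to 5 counts in each sample and was not tested. The receptor *Qrfpr* had 25.5, 20.4 and 20.7 CPM in NCD and 28.1, 31.2 and 18 CPM in HFD, with a log2 fold change of 0.22.

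*Calca* encodes calcitonin and, by alternative splicing in neurons, the alpha form of calcitonin gene-related peptide (CGRP), and it lies at chr7:114631478-114636357 on the minus strand. Its level was low, with a mean of 9.46 FPKM, and it was higher in every HFD sample than in any NCD sample. It had 37, 35 and 39 counts in the NCD samples and 152, 82 and 71 counts in the HFD samples, or 2.22, 3.56 and 5.86 CPM against 18.9, 8.07 and 13.3 CPM. The mean was 3.88 ± 1.84 CPM (SD, n = 3) for NCD and 13.4 ± 5.4 CPM (SD, n = 3) for HFD. The log2 fold change was 1.83 (SE 0.42), a 3.56-fold higher level, with an unadjusted p of 0.000803 and an adjusted p of 0.6 by edgeR. It stayed between 1.49 and 2.23 when each sample was left out in turn.

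The neighbouring gene *Calcb* encodes the beta form of CGRP, and the pair share so much sequence that short reads may be divided between them. The coding stretches that hold the start of CGRP are shown because they bear on this, from the transcripts Calca-201 and Calcb-201 of GENCODE M21 (GRCm38), 5′ to 3′ in the sense direction. Capitals mark the bases that differ. The stretch of *Calca* is coding bases 227 to 316 and spans an intron within chr7:114632511-114634468 (minus strand), and that of *Calcb* is coding bases 230 to 319 within chr7:114720214-114722063 (plus strand). Over these 90 bases 87 were identical (96.7%), and the longest shared run was 60 bases.
Calca: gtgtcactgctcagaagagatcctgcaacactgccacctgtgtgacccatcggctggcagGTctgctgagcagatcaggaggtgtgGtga
Calcb: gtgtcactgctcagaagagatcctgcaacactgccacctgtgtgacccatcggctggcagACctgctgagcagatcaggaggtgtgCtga

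*Calcb* had no count in any NCD sample and 6, 5 and 1 counts in the HFD samples, too few for the test. With the counts of both genes summed, the log2 fold change was 1.88 (SE 0.41, adjusted p = 0.45 by edgeR), a sum in which *Calcb* had few counts and which does not show how shared reads were divided. Of the other calcitonin-family members, *Adm* (adrenomedullin, a vasoactive peptide) had 3.61, 1.93 and 1.05 CPM in NCD and 3.1, 1.87 and 4.51 CPM in HFD, and a log2 fold change of 0.43 (SE 0.53, unadjusted p = 0.428 by edgeR across all genes), which ran from 0.11 without HFD3 to 1.01 without NCD1. *Iapp*, which encodes amylin, had no count in NCD and 1, 1 and 2 counts in HFD, all under 3 counts. The CGRP receptor is formed by *Calcrl* and *Ramp1*, and their log2 fold changes were -0.32 and 0.21, neither with p under 0.05.

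*Gal* was the most abundant member of the 4 with p under 0.05. Galanin is an inhibitory peptide of many hypothalamic neurons with known effects on feeding and on hormone release, and its gene lies at chr19:3409915-3414544 on the minus strand. The level was 143, 214 and 225 CPM in the NCD samples and 341, 298 and 306 CPM in the HFD samples. The HFD samples lay close together and all above the NCD samples, of which NCD1 was the lowest. The mean was 194 ± 44.5 CPM (SD, n = 3) for NCD and 315 ± 22.7 CPM (SD, n = 3) for HFD, a log2 fold change of 0.70 (SE 0.23) or 1.63-fold, with an unadjusted p of 0.00899 and an adjusted p of 0.999 by edgeR. Without NCD1 the log2 fold change was 0.51, and it was 0.58 with the log2 total count of each sample as a covariate. With 1496 to 3029 counts per sample, counting error was small beside the spread between samples. The other galanin-family member, *Galp*, had 2 counts in HFD2 and none elsewhere. *Galr1*, the receptor gene for galanin that is common in the hypothalamus, had a log2 fold change of -0.19.

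*Grp* encodes gastrin-releasing peptide, a bombesin-like peptide that reduces feeding when given to the brain. It had 49, 35 and 88 counts in the NCD samples and 130, 105 and 80 counts in the HFD samples, or 2.95, 3.56 and 13.2 CPM against 16.1, 10.3 and 15 CPM. NCD3 lay among the HFD samples and the groups overlapped. The mean was 6.58 ± 5.77 CPM (SD, n = 3) for NCD and 13.8 ± 3.08 CPM (SD, n = 3) for HFD, a log2 fold change of 1.12 (SE 0.49), with an unadjusted p of 0.0393 and an adjusted p of 0.999 by edgeR. Without NCD3 the log2 fold change was 2.09 with an adjusted p of 0.0405. Leaving out NCD1, NCD2, HFD1 or HFD3 ended the unadjusted call, with log2 fold changes of 0.73 (unadjusted p = 0.144), 0.82 (unadjusted p = 0.153), 0.99 (unadjusted p = 0.0971) and 1.06 (unadjusted p = 0.0906) by edgeR across all genes. The related *Nmb* (neuromedin B) had 4.75, 8.64 and 8.27 CPM in NCD and 9.31, 5.91 and 10.3 CPM in HFD, a log2 fold change of 0.24 (SE 0.35). *Nmb* overlaps *Sec11a* by 188 bases on the same strand, and *Nmu* (neuromedin U) had fewer reads, with 0.915 to 2.86 CPM and a log2 fold change of 0.34 (SE 0.53).

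The CPM of the groups did not overlap for 4 of the 26 members tested, beside 6.47% of all genes tested. These were *Qrfp*, *Calca*, *Gal* and *Edn3*. *Edn3* encodes endothelin 3, and it had 2.22, 2.95 and 1.95 CPM in NCD and 3.23, 3.45 and 6.2 CPM in HFD. HFD3 was the highest sample and the other HFD samples were just above NCD2. The log2 fold change was 0.82 (SE 0.43, unadjusted p = 0.0782 by edgeR across all genes), and it was 0.48 without HFD3. *Ednrb*, which encodes a receptor for endothelin 3, was lower in HFD by an unadjusted test, with 174, 157 and 129 CPM in NCD and 118, 125 and 85.5 CPM in HFD. Its log2 fold change was -0.48 (unadjusted p = 0.045, adjusted p = 0.999 by edgeR). Among the 10 members not tested, the groups did not overlap for *Nms*, *Calcb* and *Iapp*, for which the share of all genes tested is no background, and *Iapp* was under 3 counts in every sample. *Nms* encodes neuromedin S, a peptide of the suprachiasmatic nucleus, and had 17, 14 and 5 counts in NCD and 4, 7 and 2 counts in HFD, or 1.02, 1.42 and 0.751 CPM against 0.497, 0.689 and 0.376 CPM. Its HFD3 count of 2 is under the smallest amount taken as detectable. By FPKM its groups overlapped, at 1.07, 2.07 and 1.05 in NCD and 0.72, 1.15 and 0.39 in HFD.

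**Figure D3:**
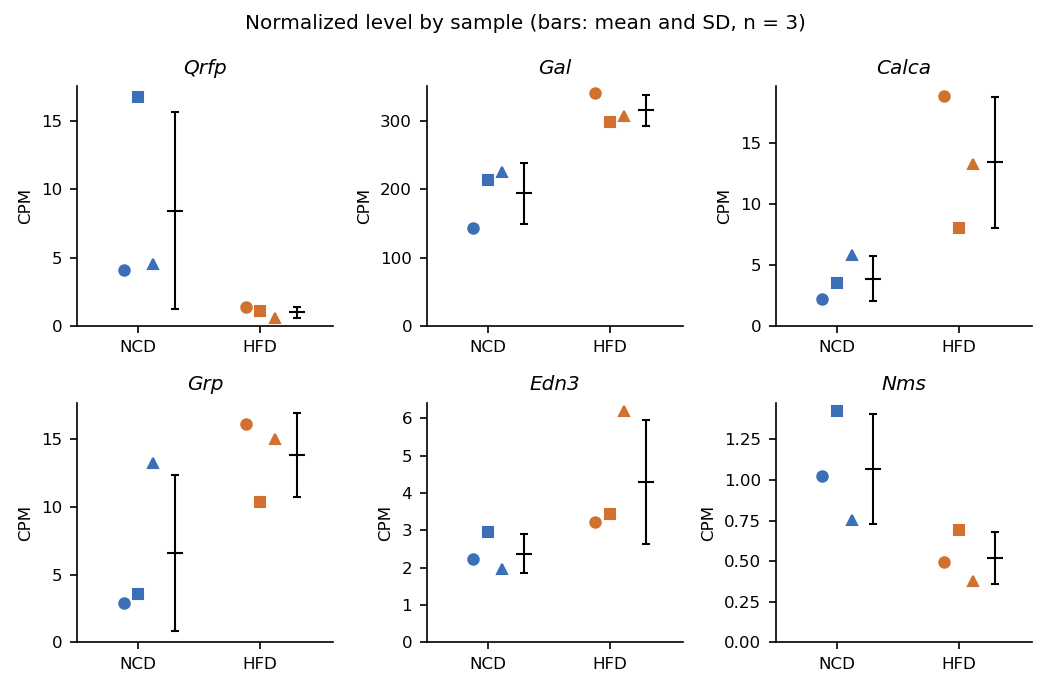
CPM of *Qrfp*, *Gal*, *Calca*, *Grp*, *Edn3* and *Nms* in each sample of NCD and HFD, 1 point per sample and a bar at the group mean. The groups separate in every panel except that of *Grp*, where NCD3 at 13.2 CPM lies among the HFD samples. The HFD3 point of *Nms* rests on 2 counts, and the groups of *Nms* overlap by FPKM.

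*Pmch* and *Hcrt* are made by neurons of the lateral hypothalamus, outside the arcuate nucleus, where melanin-concentrating hormone promotes feeding and the orexins of *Hcrt* promote arousal. They were among the members that varied most between samples of 1 diet. *Pmch* (chr10:88091072-88092375, plus strand) had 446, 716 and 691 CPM in NCD and 384, 1915 and 271 CPM in HFD. HFD2 was the highest of all samples and HFD3 the lowest, a 7.07-fold range. *Hcrt* had 9.26, 34.7 and 43.1 CPM in NCD and 28.6, 73.9 and 9.4 CPM in HFD, so HFD2 was again the highest sample, with NCD1 and HFD3 at the bottom. The log2 fold changes were 0.47 (SE 0.56, unadjusted p = 0.414 by edgeR across all genes) for *Pmch* and 0.40 (SE 0.61, unadjusted p = 0.524) for *Hcrt*. Without HFD2 they were -0.92 (unadjusted p = 0.00926 by edgeR across all genes) and -0.58. The sign also turned without NCD1 for *Hcrt*, at -0.047, and for *Pmch* with limma on log2(FPKM + 1), at -0.049, so neither had a stable direction. *Lhx9*, a transcription factor of this region, had 1.62, 6.1 and 3.61 CPM in NCD and 4.1, 7.09 and 1.88 CPM in HFD, again highest in HFD2 and, as for *Hcrt*, with NCD1 and HFD3 at the bottom. The SD within groups on the log2 scale was 1.10 for *Pmch* and 1.34 for *Hcrt*, and only 1.08% and 0.472% of all genes tested had a larger one. The part that the amount of lateral hypothalamus in a sample has in these values was not tested. *Pmch* overlaps *Parpbp* by 944 bases on the opposite strand, and the latter had 266 counts over all samples.

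Of the 26 members tested, 7 were highest in HFD3, *Cck* and *Gnrh1* among them. This was near the 6 in NCD2 and 6 in HFD2, with 3 in NCD3, 3 in HFD1 and 1 in NCD1. The same counts over all genes tested were not made. *Cck* encodes cholecystokinin, a satiety peptide also made by many forebrain neurons, and had 13, 17 and 34.4 CPM in NCD and 27.7, 16.4 and 56.4 CPM in HFD. NCD3 and HFD3 were the highest samples of their groups, and the log2 fold change was 0.65 (SE 0.43, unadjusted p = 0.158 by edgeR across all genes). It was 0.05 without HFD3, 1.15 (unadjusted p = 0.0108) without NCD3 and 0.98 (unadjusted p = 0.0277) without HFD2. *Gnrh1* (chr14:67745181-67749439) encodes gonadotropin-releasing hormone, whose cell bodies lie mostly outside the arcuate nucleus. It had 12.9, 14.5 and 5.26 CPM in NCD and 10.1, 6.6 and 22 CPM in HFD, a log2 fold change of 0.20 (SE 0.45, unadjusted p = 0.664) that was -0.41 without HFD3. *Vip*, a peptide of the suprachiasmatic nucleus, had 26 counts in HFD3 and 4 to 10 counts in each of the other samples, and was not tested. HFD3 was also the library with the smallest total and the highest pituitary and tanycyte markers. With the log2 total as a covariate the log2 fold changes were -0.027 for *Cck* and -0.046 for *Gnrh1*, and the part of the markers was not tested.

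*Penk*, the precursor of the enkephalins, had 94.2, 149 and 125 CPM in NCD and 134, 147 and 121 CPM in HFD, a log2 fold change of 0.13 (SE 0.22). *Tac1*, which encodes substance P and neurokinin A, had 91, 77.5 and 112 CPM in NCD and 51, 109 and 79.9 CPM in HFD, with a log2 fold change of -0.22 (SE 0.27) and HFD1 as the lowest sample. *Pnoc*, the nociceptin precursor, had 18.2 to 33.7 CPM and a log2 fold change of 0.20 (SE 0.24). *Adcyap1* encodes PACAP, which is abundant in the ventromedial hypothalamus, and had 181, 146 and 170 CPM in NCD and 170, 211 and 133 CPM in HFD, a log2 fold change of 0.05 (SE 0.22). *Nts* (neurotensin) had 31 to 46.1 CPM and a log2 fold change of 0.12 (SE 0.22). *Nucb2*, the precursor of nesfatin-1, had 43.4, 45.7 and 45.7 CPM in NCD and 36.5, 40.6 and 50.7 CPM in HFD, a log2 fold change of -0.08 (SE 0.20). In each of these 6 genes the groups overlapped. In all, 15 of the 26 members tested had a log2 fold change within 0.3 of 0, which is a 1.23-fold difference.

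Both *Pthlh* and *Nppc*, low members of the secreted peptides, were lower in HFD on average. *Pthlh* (parathyroid hormone-related peptide) had 7.34, 7.93 and 5.26 CPM in NCD and 2.98, 7.09 and 4.13 CPM in HFD, a log2 fold change of -0.52 (SE 0.38, unadjusted p = 0.195 by edgeR across all genes). Without HFD2 it was -0.97 with an unadjusted p of 0.0374. *Nppc* (C-type natriuretic peptide) had 4.03 to 9.35 CPM and a log2 fold change of -0.17 (SE 0.38), and without NCD2, its highest sample, the direction turned (0.27). Of the members that were not tested, *Ucn3* (urocortin 3) had 6, 15 and 2 counts in NCD and 0, 28 and 1 counts in HFD, highest in NCD2 and HFD2. *Npw* (neuropeptide W) had 0 to 14 counts and *Ucn* (urocortin) had 5 counts in NCD3 and none elsewhere. *Galp*, *Iapp* and *Cort* were under 3 counts in every sample, and *Cort* (cortistatin) had no count at all. By library totals without the trimmed mean factors, 3 counts correspond to 0.188 to 0.58 CPM. On the scaled CPM used above these limits shift slightly, and 3 counts in HFD3 were 0.564 CPM. Differences below 3 counts were not detectable at this depth.

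The granins were among the most even members. *Chga* and *Chgb* encode chromogranins A and B, and *Scg3* encodes a granin that binds chromogranin A to the vesicle membrane. *Pcsk1n* (chrX:7919822-7924410, plus strand) had 1146, 1663 and 1379 CPM in NCD and 1446, 1376 and 1193 CPM in HFD, a log2 fold change of -0.06 (SE 0.23). *Scg5* (chr2:113776362-113829121, minus strand) had 378, 485 and 513 CPM in NCD and 525, 589 and 462 CPM in HFD, a log2 fold change of 0.20 (SE 0.22). The 5 genes overlapped between the groups without exception. *Chga* had 250, 326 and 289 CPM in NCD and 257, 322 and 384 CPM in HFD, and a log2 fold change of 0.16 (SE 0.22). *Scg3* ranged from 218 to 278 CPM with a log2 fold change of 0.01 (SE 0.21). *Chgb* ranged from 258 to 307 CPM with a log2 fold change of -0.10 (SE 0.20). Its SD within groups was 0.09 on the log2 scale, and 98% of all genes tested had a larger one. The summed level of the 5 granins was 2298, 3056 and 2726 CPM in NCD and 2775, 2841 and 2534 CPM in HFD, with NCD1 the lowest sample.

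Across the 26 members tested the median SD within groups was 0.44 on the log2 scale, against 0.31 over all genes tested. NCD1 was the lowest of the 6 samples for 14 of the 26, and its median deviation from the members' mean was -0.32, while the medians of the other samples lay between 0.02 and 0.17. HFD2 was not the lowest for any of them. How often each sample was the lowest over all genes tested was not computed, so the low values of NCD1 cannot be called particular to the members. NCD1 was also the deepest library and had the lowest summed arcuate markers, whereas its summed neuron markers, 4040 CPM, lay within the 3632 to 4381 CPM of the other samples. The part of depth in the members' values was not tested beyond the fit with the total as a covariate, where the median log2 fold change of the members was 0.07.

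**Figure D4:**
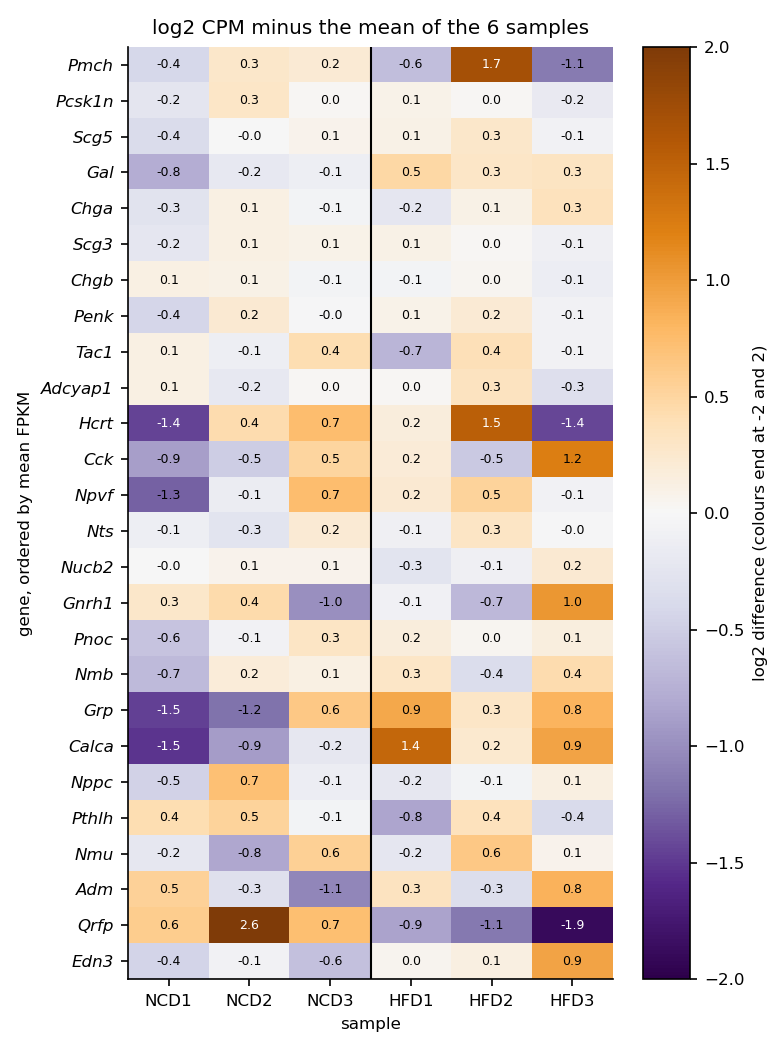
Deviation of each member's log2 CPM from its mean over the 6 samples, 1 column per sample and 1 row per member tested. NCD1 is low for many members, with a median of -0.32, and HFD2 is high for *Pmch* and *Hcrt*.

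**Figure D5:**
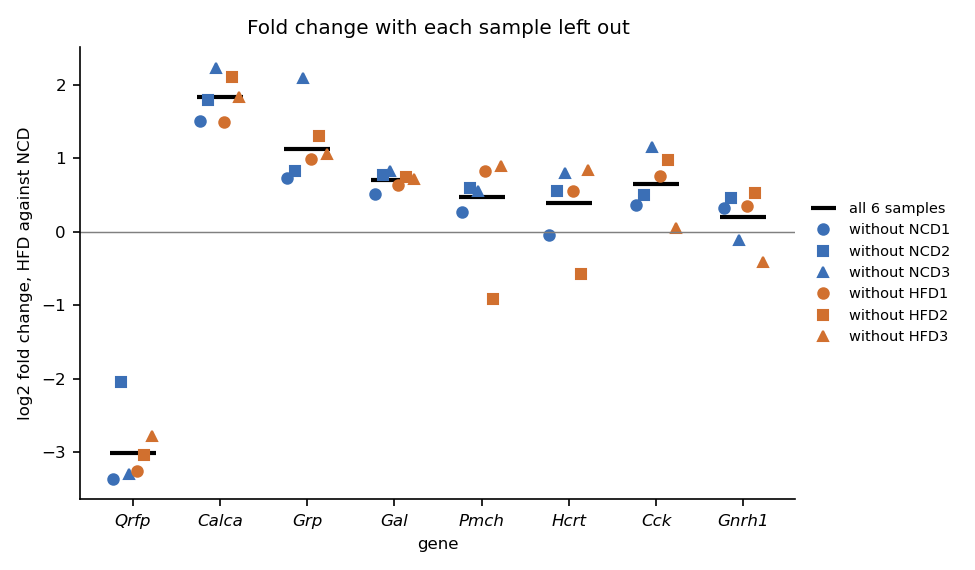
Log2 fold change of *Qrfp*, *Calca*, *Grp*, *Gal*, *Pmch*, *Hcrt*, *Cck* and *Gnrh1* with all samples and with each sample left out in turn. *Qrfp*, *Calca*, *Grp* and *Gal* stay on 1 side of 0, while *Pmch* runs from -0.92 to 0.89 and *Hcrt* and *Gnrh1* also cross 0.

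Promoters were read for *Qrfp*, *Calca* and *Gal*, as the members with p under 0.05 that had one, and for *Chgb* as the most even member. Many neuropeptide genes are known to be driven through the cAMP response element, which CREB binds, or through the AP-1 element, which Fos and Jun proteins bind. They are the 250 bases before the RefSeq start site on GRCm38.p6, 5′ to 3′ on the gene's strand, and capitals mark a match to the cAMP response element TGACGTCA, to its shorter form TGACG or CGTCA, or to the AP-1 element TGACTCA or TGAGTCA. They lie at chr2:31810581-31810830 (minus) for *Qrfp*, chr7:114636358-114636607 (minus) for *Calca*, chr19:3414545-3414794 (minus) for *Gal* and chr2:132781392-132781641 (plus) for *Chgb*.
Qrfp: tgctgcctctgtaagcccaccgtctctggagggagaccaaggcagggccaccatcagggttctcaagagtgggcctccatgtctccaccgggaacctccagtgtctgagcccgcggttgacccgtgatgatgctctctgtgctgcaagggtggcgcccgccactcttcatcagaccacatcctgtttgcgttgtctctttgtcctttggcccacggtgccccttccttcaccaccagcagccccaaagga
Calca: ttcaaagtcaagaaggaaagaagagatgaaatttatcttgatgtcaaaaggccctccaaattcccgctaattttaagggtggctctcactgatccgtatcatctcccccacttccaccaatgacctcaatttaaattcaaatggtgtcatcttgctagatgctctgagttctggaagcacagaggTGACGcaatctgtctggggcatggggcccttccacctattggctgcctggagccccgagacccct
Gal: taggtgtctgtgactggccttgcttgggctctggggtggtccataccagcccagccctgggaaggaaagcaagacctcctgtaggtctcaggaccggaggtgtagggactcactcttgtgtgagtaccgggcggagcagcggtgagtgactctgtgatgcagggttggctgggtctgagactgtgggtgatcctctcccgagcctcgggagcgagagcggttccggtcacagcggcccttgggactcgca
Chgb: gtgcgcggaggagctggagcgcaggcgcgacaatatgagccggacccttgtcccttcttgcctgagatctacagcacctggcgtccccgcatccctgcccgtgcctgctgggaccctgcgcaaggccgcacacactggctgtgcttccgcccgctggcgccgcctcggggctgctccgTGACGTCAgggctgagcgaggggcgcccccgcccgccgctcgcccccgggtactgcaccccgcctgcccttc

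The stretch before *Calca* held the shorter form with its first base at -65 from the start site, that before *Chgb* held the full element at -72, and those before *Qrfp* and *Gal* held none of these letters. Promoters were matched for 29 members and not for *Penk*, *Calcb*, *Pnoc*, *Npw*, *Gnrh1*, *Npff* and *Grp*. The full element was present for *Chgb* and *Ucn*, 2 of 29 members (6.90%), and in 1.77% of the 27025 genes with a promoter. The shorter form, which the full element contains, was present in 13 of 29 members (44.8%) and in 19.8% of all genes. These 13 were *Adcyap1*, *Calca*, *Cck*, *Chga*, *Chgb*, *Cort*, *Nmu*, *Nts*, *Scg3*, *Scg5*, *Tac1*, *Ucn* and *Vip*. Of them *Cort*, *Ucn* and *Vip* were not tested, and of the others only *Calca* had p under 0.05. The AP-1 element was present in 5 of 29 members (17.2%), *Nms*, *Nmu*, *Nts*, *Pcsk1n* and *Pmch*, and in 5.16% of all genes. Base composition was not matched between the members and the background, which includes noncoding genes, and a match is not a site of binding.

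The other genes of the peptide pathway gave no adjusted p under 0.05. Of 15 precursor processing enzymes, which cut and modify the precursors, 6 were above 0 and 9 below, with a median log2 fold change of -0.08. *Pcsk1*, the prohormone convertase 1 that *Pcsk1n* inhibits, had 126, 88.3 and 82.5 CPM in NCD and 65.8, 80.9 and 53 CPM in HFD, all HFD samples below all NCD samples. Its log2 fold change was -0.57 (unadjusted p = 0.0295, adjusted p = 0.999 by edgeR). *Qpctl*, an enzyme that forms the pyroglutamate end of some peptides, had 29.3, 28.2 and 22.7 CPM in NCD and 16.6, 20.8 and 15.4 CPM in HFD. Its log2 fold change was -0.60 (unadjusted p = 0.0204, adjusted p = 0.999 by edgeR). Of 17 further vesicle genes and granins, 6 were above 0 and 11 below, with a median of -0.08 and no p under 0.05. Of 15 peptide-degrading enzymes 14 were tested, 6 above 0 and 8 below, with a median of -0.05 and no p under 0.05. Of 37 receptors of the member peptides 32 were tested, 20 above 0 and 12 below, with a median of 0.08, and *Ednrb* alone had p under 0.05. These 3 unadjusted calls, *Pcsk1*, *Qpctl* and *Ednrb*, stand beside the 2.30% of all genes tested, and no gene of these lists had p under 0.05 without HFD1 or without HFD3.

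The peptide genes outside the group had log2 fold changes of 0.53 (*Agrp*), 0.07 (*Npy*), -0.36 (*Pomc*), 0.75 (*Cartpt*), 0.42 (*Kiss1*), 0.60 (*Tac2*) and -0.00 (*Pdyn*). Those of the magnocellular, paraventricular and growth hormone genes were -1.71 (*Avp*), -0.87 (*Oxt*), -0.31 (*Crh*), 0.51 (*Trh*), 0.44 (*Ghrh*) and 0.19 (*Sst*), and of the 13 none had an adjusted p under 0.05 by edgeR while 5 had an unadjusted p under 0.05 (*Cartpt*, *Tac2*, *Avp*, *Oxt* and *Trh*), where 2.30% of all genes tested did.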

How the data were processed

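RNA-seq was read from 1 table with 3 NCD and 3 HFD samples. Per the study's methods, the authors screened reads against ribosomal sequences (bowtie2), mapped them by HISAT2 and obtained values per gene from StringTie and RSEM. The deposited read counts were not normalized, and the deposited FPKM was scaled by the authors per kilobase and to the mapped fragments. The deposited log2 ratio, p-value and FDR come from the authors' own comparison and were not used. The labels name the samples C and H: the C columns average to within 0.002 of the authors' NCD mean FPKM in 22322 of 22322 genes.

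Counts were filtered (filterByExpr, 14188 genes left), scaled with TMM and tested two-sided with edgeR 4.0.16 in R 4.3.3 (glmQLFTest, Benjamini-Hochberg over all genes). CPM values carry no prior count, and log2 CPM deviations used a prior count of 2. DESeq2 1.42.0, limma 3.58.1 on log2(FPKM + 1) and log2(FPKM + 0.1) (mean FPKM of 0.5 or more), other scalings and filters, the log2 total as a covariate, a replicate block and each sample left out were alternatives, and the summed *Calca* and *Calcb* counts were added after seeing the data. Python 3.11.15 drew the figures. The smallest detectable amount was taken as 3 counts, a limit for counting error alone, because reads lacked molecular identifiers and are not independent molecules. The labels give the build as mm10 (GRCm38), genes were matched by identifier to GENCODE M21 for symbols and positions, and promoters are from RefSeq (GRCm38.p6). Of 22322 identifiers 55 had no symbol there, and 4145 genes had no count. Strand use in counting is not given in the sources used here, so overlapping genes cannot be told apart by strand. Data were simulated for HFD against NCD (14193 genes, the same coefficient of variation of 0.24 for each, less than the spread of many members). There 35 of 67 genes changed by a log2 of 1 were recovered and 67 of 67 changed by 2. The changed genes were drawn only from those above a minimum expected count in the smallest library. *Nmu*, *Adm* and *Edn3* lie below that minimum, so this recovery does not apply to them. The members and lists were chosen with earlier results of these data known. Members were named with all values where p was under 0.05, where the groups did not overlap, or where they led in FPKM overall or in their role, and further members given with all values were chosen after their values were seen.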

Additional observations from a re-analysis of the deposited data

How the results depend on the processing

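Scaling by RLE size factors or by library totals alone left 0 members with an adjusted p under 0.05 and changed no sign. The number of all genes with an adjusted p under 0.05, 8 by edgeR, was 15 with all genes of at least 1 count, 19 with DESeq2, 5 with limma on log2(FPKM + 1), 5 with limma on log2(FPKM + 0.1) and 15 with the log2 total as a covariate. When each sample was left out in turn it ran from 1 (without NCD2, HFD1 or HFD2) to 16 (without NCD3). For the members, 0 by edgeR, it was 1 with all genes of at least 1 count (*Qrfp*) and 2 with DESeq2 (*Qrfp* and *Calca*), and 0 to 2 with a sample left out (*Grp* and *Qrfp* without NCD3). Members with unadjusted p under 0.05 numbered 3 to 7 with a sample left out, where *Cck*, *Pthlh* and *Pmch* were added without HFD2 and *Cck* and *Npvf* without NCD3. *Npff* was added with both limma fits and *Calcb* with all genes of at least 1 count, settings that test more members (31 and 35). With a sample left out the members' median log2 fold change ran from 0.032 to 0.25. In the processing, vesicle, peptidase and receptor lists the count of adjusted calls stayed at 0 (0 to 0 with a sample left out), and the count with unadjusted p under 0.05, 3 by edgeR, was 1 with the covariate and 0 to 6 with a sample left out. The cause of these shifts was not tested.

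The sample titles share replicate numbers, but the deviations of same-numbered samples correlated at -0.012, 0.11 and 0.37 for numbers 1, 2 and 3, and not every sample correlated best with its own number, so the numbers were not read as pairs. With the replicate number as a block, 17 of all genes and 1 member (*Qrfp*, log2 fold change -2.85, adjusted p = 0.0165) had an adjusted p under 0.05 by edgeR, *Cck* had an unadjusted p of 0.0211, and the log2 fold change of *Pmch* was -0.059.

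Of 26 members 11 kept their sign under every alternative run and 15 did not. Outside the left-out samples the reversed log2 fold changes were -0.063 and -0.064 (*Adcyap1*), -0.049 and -0.050 (*Pmch*) and -0.0013 and -0.0013 (*Scg3*) with limma at pseudocounts of 1 and 0.1, and -0.027 (*Cck*), -0.046 (*Gnrh1*), -0.071 (*Nmb*) and -0.027 (*Scg3*) with the covariate. With a sample left out, log2 fold changes that crossed 0 ran from -0.13 to 0.20 (*Adcyap1*), -0.41 to 0.52 (*Gnrh1*), -0.58 to 0.83 (*Hcrt*), -0.015 to 0.45 (*Nmb*), -0.43 to 0.27 (*Nppc*), -0.11 to 0.88 (*Npvf*), -0.019 to 0.27 (*Nts*), -0.22 to 0.021 (*Nucb2*), -0.20 to 0.084 (*Pcsk1n*), -0.042 to 0.29 (*Penk*), -0.92 to 0.89 (*Pmch*), -0.021 to 0.43 (*Pnoc*), -0.11 to 0.072 (*Scg3*) and -0.52 to 0.024 (*Tac1*). The log2 fold changes of *Qrfp* (-3.36 to -2.04), *Calca* (1.49 to 2.23), *Gal* (0.51 to 0.82) and *Grp* (0.73 to 2.09) did not cross 0. *Qrfp* was not tested where a mean of at least 50 counts was required.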
